A study of Mus musculus with 10 samples.

Results

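The genes described here encode the cell's oxygen-sensing machinery. They are the 3 alpha subunits of hypoxia-inducible factor (HIF; Hif1a, Epas1 and Hif3a), their partner Arnt, the 3 prolyl hydroxylases Egln1, Egln2 and Egln3, the ubiquitin ligase subunit Vhl, the asparaginyl hydroxylase Hif1an and the coactivator competitor Cited2. The 10 symbols were listed by name, and each was read from the transcript cluster annotated to that symbol alone. All 10 had exactly 1 such cluster and passed the filter on dim genes, so they are 10 of the 23255 genes tested and of the 30063 genes with a cluster of their own symbol. For Hif1a, 1 further cluster is annotated together with another symbol and was not used. Levels are log2 array signals. They compare a gene between arrays, not different genes with each other.

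Whole retina of C57BL/6JJmsSlc mice was profiled on 10 Affymetrix whole-transcript arrays, 2 in each of 5 groups. Untreated retina was taken at postnatal day 7 and at postnatal day 17. The other 3 groups were day 17 retina of mice with oxygen-induced retinopathy (OIR), which had been kept in 75% oxygen from day 7 for 5 days and then returned to air. One OIR group was not injected, another received phosphate-buffered saline (PBS) into the vitreous at the end of hyperoxia, and the last received ISOX DUAL at that time, a compound known as an inhibitor of the bromodomains of BET proteins and of the coactivators encoded by Crebbp and Ep300. The strain is an inbred stock with no transgene or deletion named in the labels, and the dose of the inhibitor is not given in the sources used here. Whether both arrays of a group hold different mice, pooled mice or repeats of an extract is not stated in the labels. The p-values therefore reflect array-to-array spread alone, and that spread may be technical.

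HIF alpha subunits are made and destroyed continuously in oxygenated cells. Prolyl hydroxylases use molecular oxygen to modify them, the modified subunits are bound by the Vhl protein and degraded, and Hif1an, by a separate hydroxylation, keeps them from recruiting coactivators. When oxygen falls the subunits accumulate as protein, pair with Arnt and switch on target genes, among which Egln1, Egln3 and Cited2 are themselves known, so the system feeds back on itself. In OIR the retina left without vessels by hyperoxia becomes hypoxic on return to air, and HIF is known there as a driver of vessel growth. The arrays measure transcripts and not HIF protein, its hydroxylation or enzyme activity.

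The arrays had similar signal over background, with 8.00% to 9.97% of transcript clusters above the 95th percentile of negative control probes on the same array. The median of those probes was 5.83 to 6.11 log2, and their 95th percentile 8.31 to 8.64. Every value of Egln2, Vhl, Hif1an and Hif3a lay above that median but below that percentile. Egln3 exceeded the percentile only on the first uninjected OIR array. Epas1 lay below it on the day 7 arrays, and Arnt on some arrays. The tissue label was checked with 6 tested rod photoreceptor markers, whose mean was 11.02 to 11.28 on the 8 day 17 arrays and 9.29 and 9.96 on the day 7 arrays. The second ISOX DUAL array stood apart in lens transcripts, with a mean of 8.07 over 10 lens genes against 5.70 to 6.41 on the other 9 arrays, and the ISOX DUAL values of Egln1, Egln3 and Cited2 are therefore also given without it.

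The prolyl hydroxylases that are known HIF targets rose in uninjected OIR, and the third family member did not pass the test. Cited2, the other member known as a target, did not pass either (-0.10 ± 0.17 log2). Egln3 was at 8.78 and 8.31 log2 on the uninjected OIR arrays and at 6.32 and 5.79 on the untreated day 17 arrays. The groups did not overlap. The difference was 2.49 ± 0.23 log2 (SE, n = 2 arrays per group), or 5.61-fold with a 95% interval of 3.86 to 8.13 (adjusted p = 0.00973), the fifth largest rise of all genes tested. In untreated day 17 retina Egln3 lay near the negative control median, above it on the first array (6.32 against 5.83) and just below it on the second (5.79 against 5.84). That level is therefore close to the limit of detection, and the fold is approximate.

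Egln1, the main hydroxylase of HIF alpha in most tissues, was at 9.92 and 9.77 log2 in uninjected OIR and at 8.87 and 8.91 in untreated day 17 retina. Both OIR arrays lay above both untreated arrays by far more than the gap within either pair. The rise was 0.96 ± 0.09 log2, or 1.94-fold (1.67 to 2.26, adjusted p = 0.0129). Egln2, the family member not known as a HIF target, was at 7.27 and 7.40 in OIR and at 7.00 and 7.56 in untreated retina. These groups overlapped, and the difference was 0.05 ± 0.19 log2 with a 95% interval of -0.40 to 0.50, wide enough to hold a change of 1.41-fold. All Egln2 values lay below the 95th percentile of negative control probes, so a change could have been missed.

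Of the 10 oxygen-sensing genes, 2 rose and 0 fell by the limma threshold (adjusted p under 0.05) in uninjected OIR, where 0.456% of all tested genes rose and 0.0387% fell. Arrays of both groups did not overlap for 3 of the 10, all upward (Egln1, Egln3 and Arnt), against 28.4% of all genes, 9.44% upward and 19.0% downward. The calls rest on 2 arrays a group. Egln3 kept a difference of 2.22 to 2.75 log2 with any single array left out, but its adjusted p was 0.0504 without the first untreated day 17 array, 0.0722 without the second and 0.0667 without the first OIR array. For Egln1 these adjusted p-values were 0.108, 0.0812 and 0.0986, at differences of 0.88 to 1.03 log2 over all single omissions. With only the 4 arrays of this comparison in the fit neither passed (adjusted p = 0.287 and 0.335), and with array weights Egln1 did not (0.0708).

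**Figure D1:**
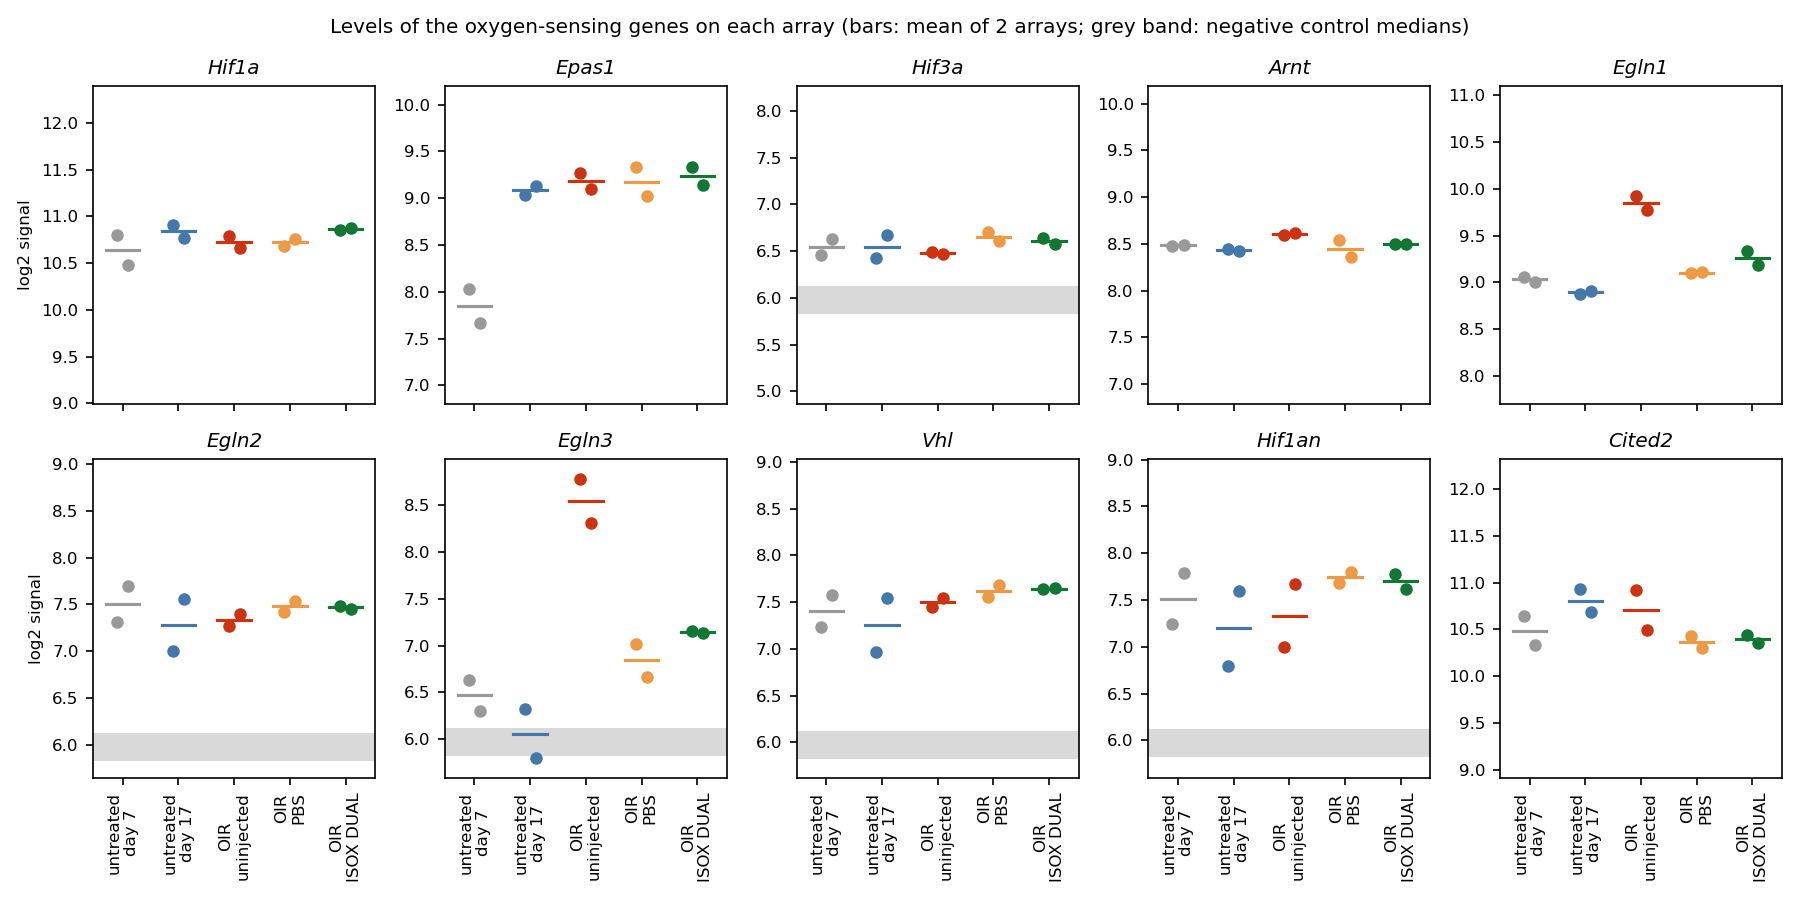
Log2 signal (y axis, each panel with its own range) of the 10 oxygen-sensing genes on each of 2 arrays (points) in the 5 groups (x axis), with group means as bars and the span of the negative control medians, 5.83 to 6.11, as a grey band. Egln3 and Egln1 stand highest on the 2 uninjected OIR arrays, and Epas1 is lowest on the 2 day 7 arrays.

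Marker lists of vessel cells and astrocytes had higher means in the same arrays. The mean of 7 pericyte markers was 7.49 and 7.66 log2 in uninjected OIR and 6.95 and 6.99 in untreated day 17 retina, with 0 of 7 past the threshold, and the mean of 9 endothelial markers was 7.02 and 7.20 against 6.71 and 6.84 (0 of 9 past it). For 9 Müller glia markers the means were 8.14 and 8.40 in OIR against 8.33 and 8.63, again with 0 past it. Pigment epithelium and ganglion cell lists were lower, each at a median difference of -0.32 log2 (0 of 8 and 1 of 7 positive). Rod, cone, bipolar, amacrine and lens lists had medians of -0.18 to -0.09. The microglia list had a median of 0.16 and 2 erythroid markers one of 0.31. None of the markers in these 9 lists passed the threshold. For 5 astrocyte markers the means were 6.57 and 6.62 against 6.08 and 6.25, with 1 of 5 past the threshold: Gfap, the filament gene of astrocytes and of reactive Müller glia, was 2.39 ± 0.18 log2 higher (adjusted p = 0.00526), while the median difference of the 5 was -0.04. In whole retina more cells of a type and more RNA per cell cannot be told apart, and the part of these shifts in the rise of Egln1 and Egln3 was not tested.

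Both hydroxylases lay lower in injected than in uninjected OIR retina, after either injection, though the differences did not pass the threshold. Egln3 was at 7.02 and 6.66 log2 with PBS and at 7.16 and 7.13 with ISOX DUAL. All 4 injected arrays lay below both uninjected OIR arrays and above both untreated day 17 arrays. Set against uninjected OIR, Egln3 differed by -1.70 ± 0.23 log2 with PBS (95% interval -2.24 to -1.17, adjusted p = 0.186) and -1.40 ± 0.23 with ISOX DUAL (-1.94 to -0.86, adjusted p = 0.288). Both comparisons share the uninjected OIR arrays, with each other and with the rise over untreated day 17 retina, and are not independent of it. With the replicate number as a block the PBS difference of Egln3 passed (adjusted p = 0.0455).

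Egln1 took the same order. It was at 9.10 and 9.11 log2 with PBS and at 9.33 and 9.19 with ISOX DUAL, again between the uninjected OIR and untreated day 17 arrays with no overlap. Its difference against the uninjected arrays was -0.74 ± 0.09 log2 for PBS (adjusted p = 0.186) and -0.59 ± 0.09 for ISOX DUAL (adjusted p = 0.268). Among all 23255 genes, Egln1 and Egln3 had the 4th and 7th smallest p-values for PBS against uninjected OIR, and the 25th and 27th smallest for ISOX DUAL. These ranks rest on the same uninjected OIR arrays as the rise of both genes in OIR and are no separate evidence.

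Against untreated day 17 retina, Egln3 was 0.78 ± 0.23 log2 higher with PBS (1.72-fold, adjusted p = 0.537, and 0.52 log2 without the second untreated array) and 1.09 ± 0.23 higher with ISOX DUAL (2.12-fold, adjusted p = 0.268). Egln1 was 0.21 ± 0.09 higher with PBS (adjusted p = 0.544) and 0.37 ± 0.09 higher with ISOX DUAL (adjusted p = 0.333). None of these 4 differences passed, so neither a remaining elevation nor a full return was called. Pericyte markers lay at 7.11 and 7.30 log2 with PBS and at 7.04 and 7.12 with ISOX DUAL, also between uninjected OIR and untreated day 17 retina, while 7 ganglion cell markers had means of 7.37 and 8.18 with PBS and 7.62 and 7.13 with ISOX DUAL against 8.53 and 8.06 in uninjected OIR. Astrocyte marker means were 6.45 and 6.62 with PBS and 6.61 and 6.70 with ISOX DUAL. Endothelial marker means were 7.05 and 6.98 with PBS and 6.97 and 6.89 with ISOX DUAL. Müller glia marker means were 8.33 and 8.53 with PBS and 8.43 and 8.54 with ISOX DUAL. The median Müller glia difference from uninjected OIR was 0.24 log2 with either injection (7 of 9 positive with PBS, 8 of 9 with ISOX DUAL). Against uninjected OIR no marker of these lists passed, and against untreated day 17 retina Gfap did with ISOX DUAL (2.25 ± 0.18 log2, adjusted p = 0.0411). Their part in the lower hydroxylase levels was not tested.

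The inhibitor and PBS were not separated for any oxygen-sensing gene. Egln3 was 0.30 ± 0.23 log2 higher with ISOX DUAL than with PBS, with an interval of 0.851-fold to 1.79-fold, and Egln1 0.16 ± 0.09 higher (0.957-fold to 1.30-fold), both with arrays that did not overlap and an adjusted p of 1. Without the second ISOX DUAL array, the array with lens signal, these differences were 0.31 and 0.23 log2. The Egln3 difference was 0.48 without the first PBS array and 0.13 without the second. On leaving out the array with lens signal, the differences from uninjected OIR were -1.39 for Egln3 and -0.52 for Egln1, and those from untreated day 17 retina 1.10 and 0.44. Hif1a was 0.14 ± 0.12 log2 higher with the inhibitor, and the remaining members differed by -0.05 to 0.06.

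By the limma threshold 0 of 10 members passed in each of the 5 comparisons that involve an injected group. The shares of all genes called were 0% for PBS against uninjected OIR, 0.00430% for ISOX DUAL against uninjected OIR, 0% for ISOX DUAL against PBS, 0% for PBS against untreated day 17 retina and 0.0172% for ISOX DUAL against it (0.00860% higher and 0.00860% lower). At an unadjusted p under 0.05 by limma there were 2, 2, 0, 2 and 3 members in that order, and 997, 998, 237, 2126 and 1967 genes. The 237 for ISOX DUAL against PBS are a smaller share of the 23255 genes than the 0.05 that chance alone would give. The p-values of that comparison may therefore be too large.

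Counts of members whose arrays did not overlap are read against the same count over all genes. With PBS against uninjected OIR they were 4 higher and 4 lower of 10, against 20.9% and 15.3% of genes (36.1% in all). With ISOX DUAL against uninjected OIR they were again 4 and 4, against 25.7% and 15.4% (41.1% in all), and in both Arnt, Egln1, Egln3 and Cited2 were the lower ones. With ISOX DUAL against PBS 3 were higher, Hif1a, Egln1 and Egln3, against 16.6% of genes higher and 28.0% in all. With PBS against untreated day 17 retina 4 were higher (Egln1, Egln3, Vhl and Hif1an) and 2 lower (Hif1a and Cited2), against 19.7% and 28.7% (48.4% in all). With ISOX DUAL against untreated day 17 retina 6 were higher (the same 4, Epas1 and Arnt) and 1 lower (Cited2), against 20.6% and 27.6% (48.1% in all).

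**Figure D2:**
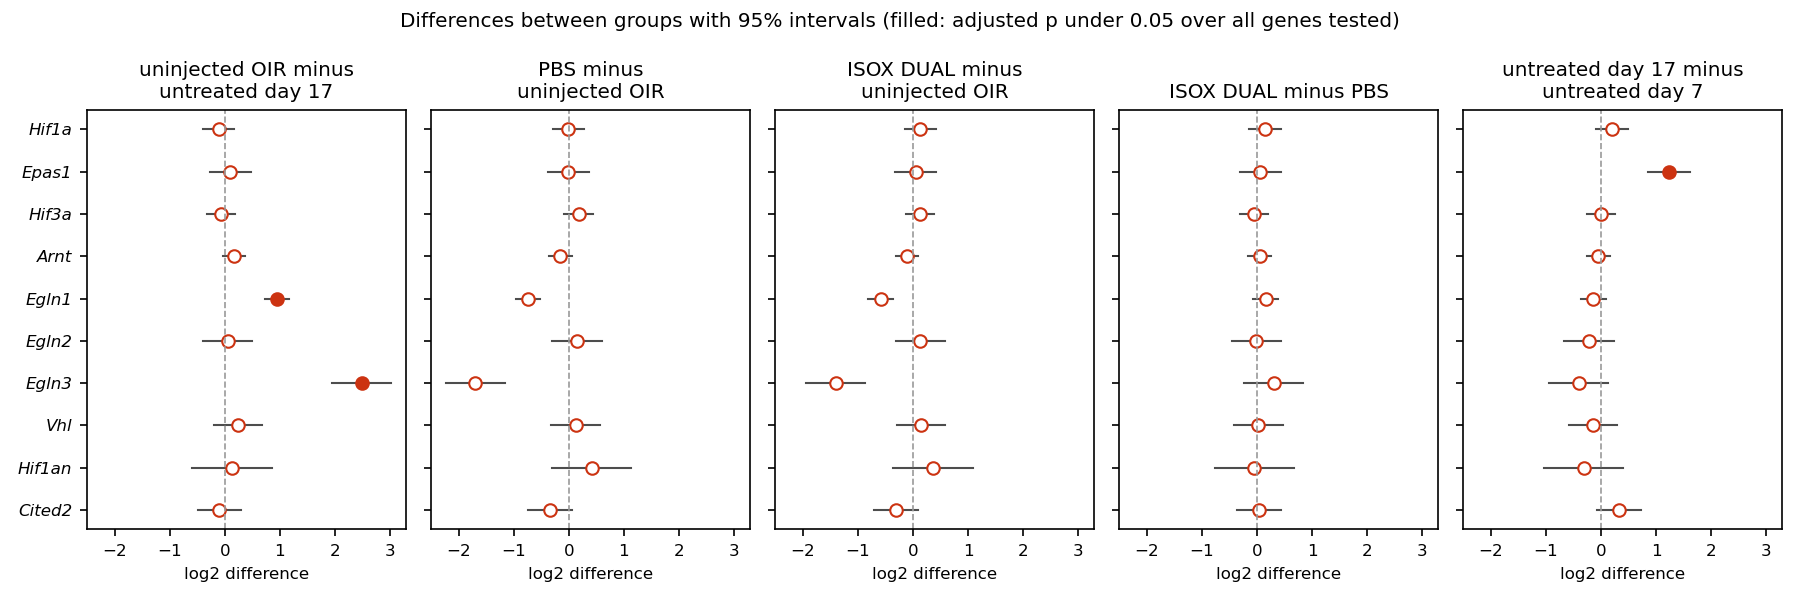
Log2 differences (x axis) of the 10 genes (y axis) in 5 comparisons with 95% intervals from the fit over all 10 arrays. Filled points passed an adjusted p of 0.05 over all genes tested: Egln1 and Egln3 in uninjected OIR, and Epas1 between days 7 and 17.

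None of the HIF subunits passed the threshold in OIR. Hif1a, the broadly expressed alpha subunit, was at 10.79 and 10.66 log2 in uninjected OIR and at 10.91 and 10.77 in untreated day 17 retina. The groups overlapped, and the difference of -0.11 ± 0.12 log2 had an interval of 0.760-fold to 1.13-fold. Over all 10 arrays Hif1a ranged from 10.48 to 10.91, and the largest gap between arrays of a group (0.32) exceeded the range of the group means (0.22). The order of its groups, from day 7 to PBS, uninjected OIR, untreated day 17 and ISOX DUAL, is therefore not resolved.

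Hif3a, an alpha subunit with splice forms known to restrain the others, was at 6.49 and 6.47 log2 in uninjected OIR and at 6.43 and 6.67 in untreated day 17 retina (-0.07 ± 0.11 log2, 0.799-fold to 1.14-fold). Its 10 values spanned only 6.43 to 6.70 and lay above the negative control median on every array, though not far above it, so a change at this level could have been missed. Arnt, the constitutive partner, was at 8.60 and 8.61 in uninjected OIR and at 8.45 and 8.43 in untreated retina. The arrays did not overlap, but the difference of 0.17 ± 0.09 log2 did not pass (adjusted p = 0.970). In the other groups Arnt lay between 8.36 and 8.54.

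Epas1, the alpha subunit known for its expression in endothelium, was the oxygen-sensing gene that rose with age. It was at 8.03 and 7.66 log2 on the day 7 arrays and at 9.04 and 9.13 on the untreated day 17 arrays. The groups did not overlap, and the rise was 1.24 ± 0.16 log2, or 2.35-fold (1.82 to 3.05, adjusted p = 0.00331). It passed with any single array left out (adjusted p of 0.00436 to 0.0195) and in every other setting tried, at most 0.0487 with only the 4 arrays of this comparison. In day 17 retina Epas1 stayed within 9.02 to 9.34 log2 on all 8 arrays. Uninjected OIR differed from untreated retina by 0.10 ± 0.16 log2, with an interval of 0.827-fold to 1.39-fold.

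Between days 7 and 17, 1 of the 10 members rose and 0 fell, where 10.6% of all genes passed, 5.26% upward and 5.29% downward. Arrays did not overlap for 4 members, Epas1 and Cited2 upward and Arnt and Egln1 downward, against 40.4% of all genes, 20.7% upward and 19.7% downward. Cited2 was 0.32 ± 0.17 log2 higher at day 17 (adjusted p = 0.331), and Egln3 differed by -0.41 ± 0.23 (adjusted p = 0.363). Both depended on single arrays: the Egln3 difference was -0.67 without the first day 17 array, -0.15 without the second and -0.24 without the first day 7 array, and that of Cited2 was 0.20 without the first day 17 array and 0.17 without the second day 7 array. Cell type markers shifted between these days too: the mean of 9 endothelial markers was 6.45 and 6.52 log2 at day 7 and 6.71 and 6.84 at day 17 (3 higher and 1 lower past the threshold), and that of 9 Müller glia markers was 7.99 and 8.14 against 8.33 and 8.63 (2 higher and 1 lower). Past the threshold and higher at day 17 were also 5 of 6 rod, 5 of 6 cone, 3 of 7 pericyte and 3 of 8 pigment epithelium markers. Of 6 bipolar cell markers 4 were higher and 1 lower, at a list median of 1.99 log2. Of 6 amacrine cell markers 1 was higher and 1 lower. Lists of astrocytes, ganglion cells, microglia, lens and erythroid cells had 0 markers past it. Their part in the rise of Epas1 was not tested.

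Vhl, Hif1an and Cited2, whose proteins mark, block or compete with HIF, did not pass in any comparison. Vhl was at 7.44 and 7.55 log2 in uninjected OIR and at 6.97 and 7.54 in untreated day 17 retina (0.24 ± 0.19 log2, adjusted p = 0.999). Hif1an was at 7.00 and 7.67 in uninjected OIR and at 6.80 and 7.60 in untreated retina, so the gap within each group was several times the difference of 0.13 ± 0.31 log2 between them. Its interval, 0.666-fold to 1.81-fold, is the widest among the 10 genes. With injection the Hif1an arrays lay closer together, at 7.69 and 7.80 with PBS and 7.78 and 7.62 with ISOX DUAL.

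Cited2, whose protein competes with HIF for the coactivators encoded by Crebbp and Ep300, was at 10.92 and 10.50 log2 in uninjected OIR and at 10.93 and 10.68 in untreated day 17 retina (-0.10 ± 0.17 log2). It was lower on the injected arrays, at 10.43 and 10.30 with PBS and at 10.44 and 10.36 with ISOX DUAL, all below the 4 arrays of the uninjected day 17 groups. Against untreated day 17 retina the difference was -0.44 ± 0.17 log2 with PBS (unadjusted p = 0.0335, adjusted p = 0.541) and -0.41 ± 0.17 with ISOX DUAL (unadjusted p = 0.0456, adjusted p = 0.579), and neither passed. Without the second ISOX DUAL array the latter was -0.36 log2.

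Other genes of the pathway were described from 3 lists. Of 40 further HIF targets, 37 were tested and 8 rose in uninjected OIR, with 0 lower, at a median difference of 0.52 log2 against -0.035 over all genes, of which 0.456% rose. They were Adm (3.23 ± 0.19 log2, from an untreated mean of 5.39 that lay below the negative control median), which encodes a vasodilator peptide, Hmox1 (heme oxygenase, 2.53 ± 0.26), Ndufa4l2 (a mitochondrial subunit, 2.30 ± 0.31), Pfkfb3 (a regulator of glycolysis, 1.20 ± 0.17), Ero1a (a protein-folding oxidase, 1.14 ± 0.16), Vegfa (the vessel growth factor, 1.08 ± 0.12), Bnip3 (a mitophagy receptor, 1.05 ± 0.14) and Stc2 (stanniocalcin, 0.90 ± 0.14). With single arrays left out this count of 8 fell to between 0 and 5: to 1 without the first untreated day 17 array, 0 without the second, 1 and 3 on leaving out the first or the second OIR array, 2 when either ISOX DUAL array was dropped, 3 for either of the PBS arrays and 5 for either of the day 7 arrays. It was 1 with array weights and 0 with only the 4 arrays of this comparison in the fit. Targets also passed between untreated days 7 and 17, 6 of 37 higher and 4 lower, at a median difference of 0.14 log2. Bnip3 and Ndufa4l2 were among them. Over all genes 5.26% rose and 5.29% fell between these days.

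The same target list had a median of -0.30 log2 with PBS and -0.24 with ISOX DUAL against uninjected OIR, with 0 of 37 past the threshold in each, and of 0.06 with ISOX DUAL against PBS, also with 0 past it. Against untreated day 17 retina 0 of 37 passed with PBS (median 0.29) and 1 with ISOX DUAL (Adm, median of the list 0.36), a call that was lost with array weights, with only the 2 groups in the fit, and without any single array other than those of uninjected OIR. The values of the single targets were spread widely. For PBS against uninjected OIR the difference was -1.64 ± 0.26 log2 for Hmox1, -1.25 ± 0.19 for Adm and -0.68 ± 0.14 for Bnip3. Vegfa (-0.19 ± 0.12), Stc2 (-0.07 ± 0.14) and Pfkfb3 (-0.30 ± 0.17) had smaller differences. Differences between genes were not tested against each other.

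A list of 30 genes covers HIF stability, turnover and coactivators and also holds related PAS-domain factor genes. Of these 30, 24 were tested and 0 passed in uninjected OIR (median 0.005 log2, 12 of 24 positive). The smallest p-values belonged to the related PAS-domain factor genes Npas3 (0.64 ± 0.10 log2, adjusted p = 0.0560) and Ahr (0.97 ± 0.20, adjusted p = 0.129), then Mmp14 (0.53 ± 0.15), Cited4 (-0.22 ± 0.10) and Siah1a (-0.25 ± 0.17). The coactivator genes Crebbp (-0.01 ± 0.20) and Ep300 (-0.06 ± 0.35) did not pass. Between days 7 and 17, 2 of the 24 rose (Ahr, 1.28 ± 0.20, and Usp33, 0.91 ± 0.12) and 3 fell, among them Arnt2, a neuronal relative of Arnt, by 0.91 on the log2 scale (± 0.13, adjusted p = 0.00485), while Arnt differed by -0.05 ± 0.09. Over all tested genes 5.26% rose and 5.29% fell between these days.

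Of 30 other oxygen-dependent dioxygenases and their known substrates, 28 were tested and 0 passed in uninjected OIR (median 0.15 log2, 20 of 28 positive). Rgs5, a pericyte gene whose protein is degraded in an oxygen-dependent way, had the smallest p (0.96 ± 0.17 log2, adjusted p = 0.0759). The histone demethylase gene Kdm6b (0.53 ± 0.13), Asph (0.27 ± 0.09), Jmjd6 (0.29 ± 0.10) and Tet2 (0.30 ± 0.11) followed.

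**Figure D3:**
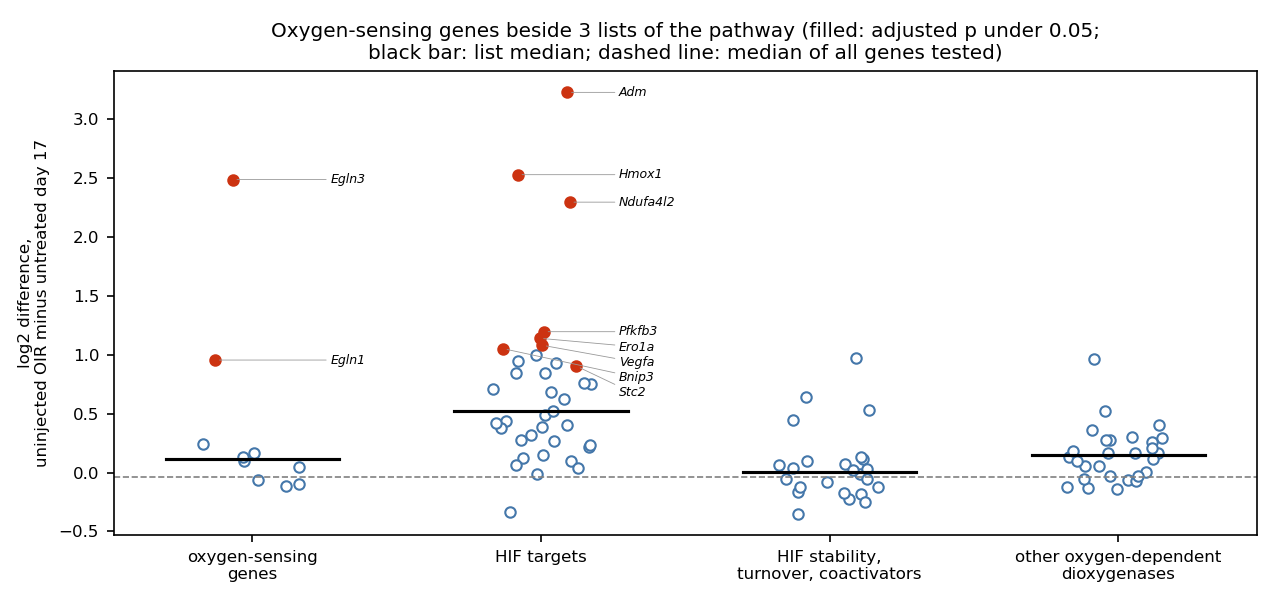
Log2 difference of uninjected OIR from untreated day 17 retina (y axis) for the 10 oxygen-sensing genes and 3 pathway lists (x axis, 37, 24 and 28 tested genes). Filled points passed the threshold; black bars are list medians (0.52 for HIF targets, 0.005 and 0.15 for the other lists), and the dashed line is the median of all genes, -0.035.

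The genes whose centred levels lay nearest to each changed member over the 10 arrays were found by the root-mean-square (RMS) difference of the profiles, a description over arrays that share groups. Because they were picked for likeness on these arrays, their differences between groups follow from the choice and are no separate evidence. For Egln3 they were Fn1, which encodes fibronectin (RMS difference 0.293 log2), Ccn1, a secreted matrix-associated protein gene (0.357), and the adhesion receptor gene Adgrg6 (0.363), which lay below the negative control median on 4 of 10 arrays. Fn1 was 2.01 ± 0.15 log2 higher in uninjected OIR than in untreated day 17 retina, and stood at 10.23 there against 9.20 with PBS and 9.28 with ISOX DUAL.

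For Egln1 the nearest profiles were Lrrc32 (0.0966), Ipo5, an importin gene (0.0983), and Prkab2, a subunit gene of the AMP-activated kinase (0.0989). Lrrc32 lay below the negative control median on 8 of 10 arrays. Ipo5 was at 9.93 log2 in uninjected OIR, 8.78 in untreated day 17 retina, 9.09 with PBS and 9.34 with ISOX DUAL. For Epas1 they were Uckl1 (0.106), Osbpl6 (0.108) and St3gal1 (0.108), which rose between days 7 and 17 by 1.37 ± 0.13, 1.26 ± 0.12 and 1.07 ± 0.12 log2.

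**Figure D4:**
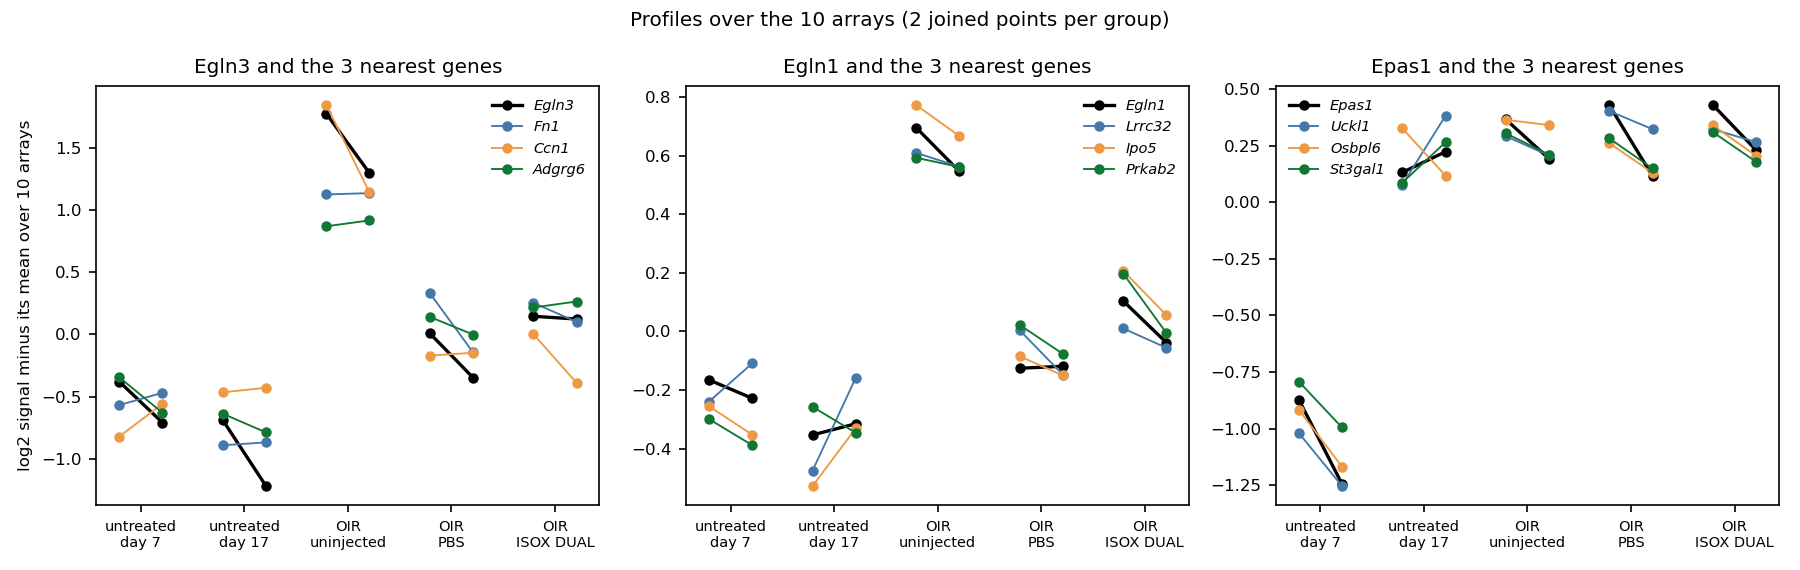
Log2 signal minus the gene's mean over 10 arrays (y axis) for Egln3, Egln1 and Epas1 (black) and the 3 genes of nearest profile (colours), with both arrays of each group (x axis) joined. The Egln3 and Egln1 sets peak in uninjected OIR and lie lower in both injected groups, and the Epas1 set is low at day 7 and level in the 4 day 17 groups. These shared shapes follow from the choice of genes by profile.

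The sequences upstream of the hydroxylase genes were searched because HIF binds a short core, the hypoxia response element. The core was searched on both strands as ACGTG and GCGTG in the 250 bases before each start site in RefSeq (GRCm38.p6). The promoters of both risen hydroxylase genes and that of Vhl, a window without a match, are shown. Egln2, which did not pass in OIR, holds more matches at its first start than either risen gene, and its matches are listed below. Sequences run 5′ to 3′ in the direction of the gene and end at the base before the start, with matches in capitals.
Egln3 (chr12:54203875-54204124, minus strand): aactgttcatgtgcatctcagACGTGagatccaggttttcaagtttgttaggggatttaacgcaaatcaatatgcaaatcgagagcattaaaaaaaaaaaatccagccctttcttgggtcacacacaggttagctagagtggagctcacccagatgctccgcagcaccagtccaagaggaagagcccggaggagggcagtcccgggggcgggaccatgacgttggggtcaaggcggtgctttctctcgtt
Egln1 (chr8:124949255-124949504, minus strand): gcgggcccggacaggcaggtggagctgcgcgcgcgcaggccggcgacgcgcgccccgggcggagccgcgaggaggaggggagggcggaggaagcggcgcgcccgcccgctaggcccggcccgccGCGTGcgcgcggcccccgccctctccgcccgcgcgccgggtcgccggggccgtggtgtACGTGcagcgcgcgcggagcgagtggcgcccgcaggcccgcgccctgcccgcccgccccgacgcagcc
Vhl (chr6:113623744-113623993, plus strand): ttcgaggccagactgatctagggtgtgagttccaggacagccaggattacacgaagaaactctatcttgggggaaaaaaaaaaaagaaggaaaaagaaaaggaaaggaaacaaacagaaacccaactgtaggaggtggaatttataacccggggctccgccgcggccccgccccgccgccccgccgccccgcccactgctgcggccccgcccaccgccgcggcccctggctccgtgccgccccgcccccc

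Egln3 holds 1 match, ACGTG at 229 bases before the start on the gene's strand. Egln1 holds 2, GCGTG at 126 and ACGTG at 68 bases. Vhl and Hif1an hold none. Hif1a and Cited2 each hold an ACGTG on both strands at overlapping positions (135 and 134 bases in Hif1a, 153 and 152 in Cited2), since the palindrome CACGTG reads as the core in both directions, and Hif1a has a further one at 70. Egln2, which did not pass in OIR, holds 4 at its first listed start and 1 at the second. Arnt has 1 and Hif3a 2, all spelled GCGTG.

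Of the 10 windows found for 9 members, with Egln2 counted at both of its starts, 8 hold a match, in 7 of the 9 members. Over all genes 38.6% of 32851 windows of that length hold a match. Both spellings contain CG, and these windows were not matched to the members for base composition, so enrichment was not tested. ACGTG occurs in 16.6% of all windows. A match is a string of letters and not a measured binding site, the core is short, and sequence outside this window was not searched.

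**Figure D5:**
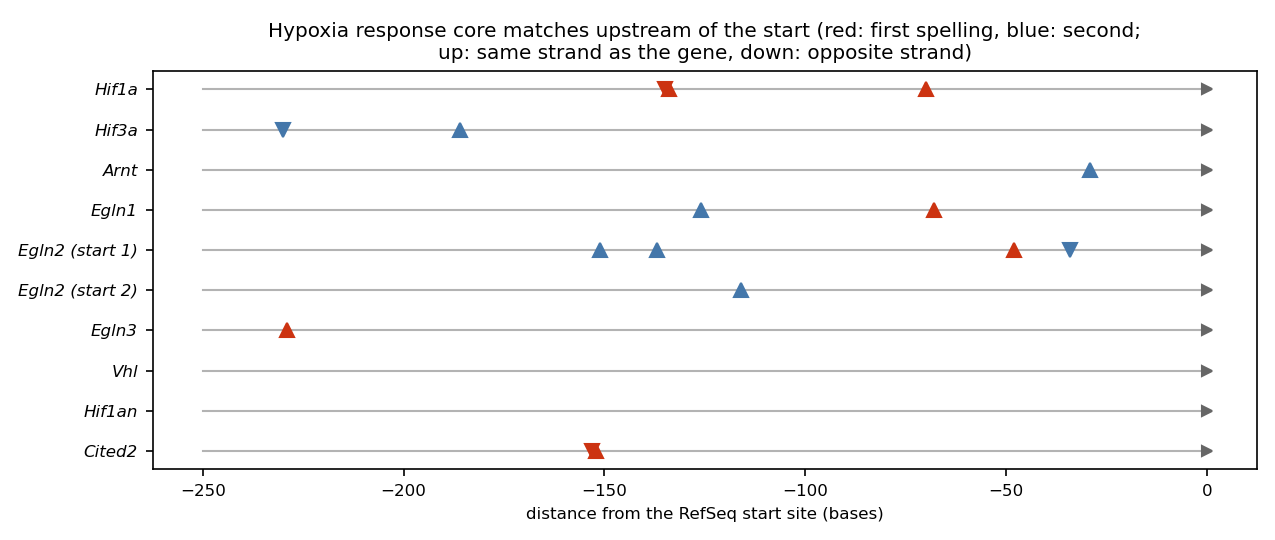
Matches of the hypoxia response core in the 250 bases before each RefSeq start site (x axis, bases from the start) for the 9 members with a window, 1 line per start site. Red marks ACGTG and blue GCGTG; triangles pointing up lie on the gene's strand and those pointing down on the opposite one. Members with several matches include Egln2 and Hif1a as well as Egln1.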

How the data were processed

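Total RNA of whole retina was extracted with Trizol and labelled with the WT Terminal Labeling Kit, per the labels' protocols. The authors deposited log2 values, 1 for each transcript cluster on each array. The log2 scale was read from the values (0.78 to 13.67). For these values the software, background correction, normalization and genome build are not stated in the labels, and the deposited log2 values were taken unchanged.

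Of 72688 rows, 6732 are controls. Of 65956 transcript clusters, 30604 have 1 gene symbol (updated through RefSeq, GRCm38.p6), 2146 several and 33206 none. Where a gene had several such clusters, that of highest mean was used. Genes entered the test when 2 or more arrays exceeded their own 30th percentile.

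All 10 arrays entered 1 linear model (lmFit and eBayes of limma 3.58.1, R 4.3.3), with Benjamini-Hochberg adjustment over 23255 genes and a threshold of 0.05. ± gives the SE, and intervals are 95%. The fit has 5 residual and 2.76 prior degrees of freedom and a median SE of 0.134 log2. The steps were tested on simulated data. Precision is limited by having 2 arrays a group.

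The members, lists, rules for named genes and alternatives were chosen with earlier results of these data known. All 10 members were named, with the 3 nearest profiles of each called member (predicted genes left out) and up to 5 genes of smallest p in OIR from each pathway list. Other genes named are called list members or coactivators. Of 10 members, 9 matched the RefSeq promoter table.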

Additional observations from a re-analysis of the deposited data

How the results depend on the processing

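Of 70 differences (10 genes in 7 comparisons), 3 passed the threshold: Egln1 and Egln3 in uninjected OIR and Epas1 with age. None of these 3 changed sign under the 10 other settings or with any of the 10 arrays left out. Signs changed for 25 of the 67 that did not pass, with sizes of up to 0.31 log2; the cause was not tested. Ranges with single arrays left out for those were as follows. In uninjected OIR against untreated day 17 retina, Hif3a (-0.19 to 0.055), Egln2 (-0.23 to 0.33), Vhl (-0.043 to 0.53), Hif1an (-0.26 to 0.53), Cited2 (-0.31 to 0.12). With PBS against uninjected OIR, Hif1a (-0.074 to 0.057), Epas1 (-0.16 to 0.15). With ISOX DUAL against uninjected OIR, Epas1 (-0.048 to 0.15). With ISOX DUAL against PBS, Epas1 (-0.098 to 0.21), Arnt (-0.037 to 0.14), Egln2 (-0.066 to 0.048), Vhl (-0.039 to 0.085), Hif1an (-0.12 to 0.030), Cited2 (-0.028 to 0.097). With PBS against untreated day 17 retina, Epas1 (-0.062 to 0.25), Hif3a (-0.014 to 0.23), Arnt (-0.079 to 0.099), Egln2 (-0.084 to 0.47). With ISOX DUAL against untreated day 17 retina, Hif1a (-0.041 to 0.091), Hif3a (-0.064 to 0.18), Egln2 (-0.093 to 0.46). Between days 7 and 17, Hif3a (-0.12 to 0.12), Egln2 (-0.50 to 0.061), Vhl (-0.43 to 0.14), Hif1an (-0.71 to 0.084). With quantile normalization or median centring Epas1 with PBS against uninjected OIR was 0.0054 or 0.00036, and Hif3a between the days -0.017 or -0.0025. With quantile normalization Hif1a with ISOX DUAL against untreated retina was -0.11.

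Members past the threshold in uninjected OIR numbered 2, but 1 with array weights, 0 with only the 2 groups compared, and 0 to 2 with single arrays left out. Genes past it numbered 115, but 12 with array weights, 0 with only those groups, 215 with crossed numbers, and 0 to 84 with single arrays left out. For ISOX DUAL against uninjected OIR 1 gene passed, but 3 with array weights, 0 with only the 2 groups, 5 with crossed numbers and 0 to 7 with arrays left out. For ISOX DUAL against PBS it was 0 (0 to 1 with arrays left out). For ISOX DUAL against untreated day 17 retina it was 4, but 2 with quantile normalization, 1 with median centring, 8 with trend and robust, 0 with array weights or only the 2 groups, 53 with crossed numbers and 0 to 6 with arrays left out. Between the days it was 2454, but 1111 with array weights, 345 with only the 2 groups, and 1500 to 2227 with arrays left out.

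The replicate numbers are shared by all groups, but the labels do not say that they mark a batch. Across 23255 genes, which are not independent replicates, the difference between the second and first arrays correlated at 0.583 to 0.809 among uninjected groups, 0.399 between the injected groups and -0.406 to -0.0567 between an injected and an uninjected group. With the replicate number as a block, members past the threshold for PBS against uninjected OIR numbered 1 in place of 0 (Egln3) and genes 5 in place of 0. Genes numbered 2 in place of 0 for PBS and 2 in place of 4 for ISOX DUAL against untreated day 17 retina. The block changed the call of no other member. With the numbers of the injected groups crossed, a setting chosen after the data were seen, genes numbered 4 for PBS against uninjected OIR and 43 for PBS against untreated day 17 retina.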

Other observations

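Within the 3 uninjected groups the first and second arrays differed in a shared direction for several oxygen-sensing genes. Hif1an was lower on the first array of each, by 0.54 log2 at day 7, 0.80 in untreated day 17 retina and 0.67 in uninjected OIR. Egln2 and Vhl were also lower on all 3 first arrays, by 0.13 to 0.56 and 0.10 to 0.57 log2. Egln3, Cited2 and Hif1a were higher on all 3, Egln3 by 0.33, 0.53 and 0.48. In all, 6 of 10 members had the same direction in the 3 groups, where 58.2% of all tested genes did. In 2.49% of genes the direction was shared and every gap was at least 0.54 log2, the smallest Hif1an gap. Genes that match Hif1an group by group were not counted. The 2 arrays of each injected group lay 0.15 log2 apart or less for Hif1an, with the first lower with PBS and higher with ISOX DUAL.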
